A study of Homo sapiens with 9 samples.

Results

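Resistance to temozolomide was followed here through the genes that stood apart from the parent cells in both resistant U87MG lines and that the lines shared at a similar level. A gene was counted where all 6 resistant libraries lay on one side of all 3 parent libraries and the means of the resistant lines differed by less than 2-fold. Of the 33264 genes in the deposited table, 5583 met this rule, 2602 of them higher and 2981 lower than in parent. A further 1289 genes lay apart from parent in both lines but had means at least 2-fold apart, and they are not described. The rule itself compares the lines with parent, so the values of its members below are a description and not a test of that difference.

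U87MG is an established human glioblastoma cell line grown in serum. The parent group (parent) is the line before any selection. The R50 group is a clonal line derived from it under 50 µM temozolomide and kept in the drug at that dose. The R50_OFF group is a clonal line derived under the same 50 µM, from which the drug was withdrawn after 2 months. Each group has 3 libraries of poly-A messenger RNA, and nothing says that they came from separate cultures, so every p-value below measures only the spread between these libraries, which may be technical. Both resistant groups are clones of the same parent, and each stands for 1 line, so traits of a clone and effects of the drug cannot be told apart.

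Temozolomide methylates DNA bases, and its main lesion, methylated guanine, becomes lethal when mismatch repair meets it during replication. Glioma cells that survive the drug are known to do so by reversing the lesion, by losing mismatch repair, or by changing checkpoint and death pathways. SLFN11, a Schlafen protein that halts stalled replication forks, is known to sensitise tumour cells to DNA-damaging drugs.

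The libraries held 28.72 to 35.82 M reads traced back from the deposited values, with 22904 to 24892 genes above 0. Values are read counts divided by a library factor and by the median transcript length in kilobases, so they can be compared between genes as levels per length. Changes are differences of log2(value + 1) against parent, a scale that compresses the change of genes near 0. R50 replicate 2 stood apart from the other R50 libraries, with a chi-square per gene of 15.09 and 18.1 against 4.66 between R50 replicates 1 and 3. Without it 2700 higher and 3048 lower genes met the rule, against 2408 and 2755 with it among the genes tested. GFAP, the intermediate filament of astrocytes, was under 10 on average in every group, as were the leukocyte gene PTPRC and the neuronal gene RBFOX3. Of 9 neuron markers with values, 4 were under 10 in every library, but others were expressed. MAP2 was 643 to 1152 and met the rule as higher, and SYT1 was 169 to 472 and met it as lower. Oligodendrocyte markers summed to 6174 to 6357 in parent and 5312 to 6708 in the resistant libraries. VIM, a mesenchymal filament that itself met the rule as lower, was between 160406 and 272350 in every library.

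Of the members, 2408 higher and 2755 lower genes passed the minimum of 10 in at least 3 libraries and entered the limma fit of 16456 genes, and 194 and 226 did not. By the rule 14.6% of tested genes were higher and 16.7% lower. In the limma fit with Benjamini-Hochberg adjustment, which the same libraries enter, 59.2% of all tested genes differed from parent in the mean of both lines, 29.7% higher and 29.5% lower. Most members moved little: 65.2% of the higher and 71.4% of the lower ones changed by less than 1.5-fold in the line nearer to parent. At least 2-fold in both lines were 467 higher members (2.84% of tested genes) and 291 lower ones (1.77%), and at least 8-fold were 105 (0.638%) and 37 (0.225%). The rule's fold limit fell between FAM20C, a secreted-protein kinase whose resistant means of 2422 and 4844 were 1.9998-fold apart, and RESF1, whose means of 1296 and 648 were 2.0014-fold apart.

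**Figure D1:**
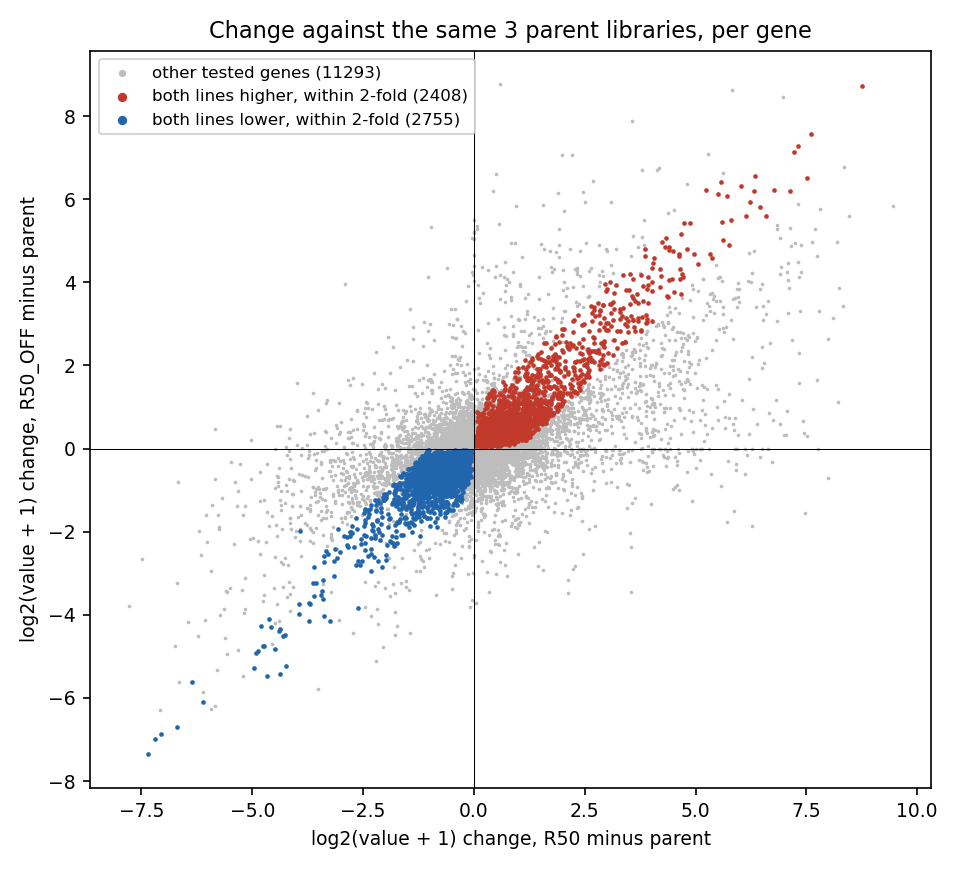
Each point is 1 of the 16456 tested genes, with the change of R50 against parent on the x axis and that of R50_OFF against the same 3 parent libraries on the y axis, both on the log2(value + 1) scale. The 2408 higher and 2755 lower members lie along the diagonal because the rule places them there, and the axes share the parent libraries.

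Among the 14 largest shared rises were the adhesion genes CHL1, CDH11 and AMIGO2 and the cancer-testis gene MAGEA12. The 14 largest shared falls included MSN, of the cell cortex, SLFN11, and the matrix gene FBN1. The promoters of the 2 leading rises and the 2 leading falls are shown because the results below turn on these genes. Each is the RefSeq sequence on GRCh38.p14 from 250 bases before to 50 bases after 1 start of the gene. It is given 5′ to 3′ on the gene's strand, with CG pairs, the sites of DNA methylation, in capitals. Other starts of these genes are not shown. For MSN the start is the outermost annotated one, at 65588377 of a gene that ends at 65741931. Its CG count therefore holds for that stretch only.

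CHL1, chr3:197639-197938, plus strand, with 20 CG pairs.
CHL1: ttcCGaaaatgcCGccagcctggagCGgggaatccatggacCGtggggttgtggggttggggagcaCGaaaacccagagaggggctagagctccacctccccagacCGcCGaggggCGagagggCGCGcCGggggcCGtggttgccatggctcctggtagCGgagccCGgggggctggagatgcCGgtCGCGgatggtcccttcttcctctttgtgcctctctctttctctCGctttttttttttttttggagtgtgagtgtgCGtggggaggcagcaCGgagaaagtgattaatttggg
MAGEA12, chrX:152733507-152733806, plus strand, with 9 CG pairs.
MAGEA12: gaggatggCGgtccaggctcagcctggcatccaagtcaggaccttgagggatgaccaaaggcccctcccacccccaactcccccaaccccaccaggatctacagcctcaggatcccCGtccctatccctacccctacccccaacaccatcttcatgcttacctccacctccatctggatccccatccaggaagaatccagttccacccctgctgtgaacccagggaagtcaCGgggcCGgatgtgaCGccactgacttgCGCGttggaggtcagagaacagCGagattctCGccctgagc
MSN, chrX:65588127-65588426, plus strand, with 7 CG pairs.
MSN: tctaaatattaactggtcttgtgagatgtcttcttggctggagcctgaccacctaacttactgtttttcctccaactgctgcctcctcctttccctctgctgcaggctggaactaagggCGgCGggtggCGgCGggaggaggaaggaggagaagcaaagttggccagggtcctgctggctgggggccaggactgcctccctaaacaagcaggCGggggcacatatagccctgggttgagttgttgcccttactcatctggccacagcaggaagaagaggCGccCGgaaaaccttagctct
SLFN11, chr17:35373572-35373871, minus strand, with 18 CG pairs.
SLFN11: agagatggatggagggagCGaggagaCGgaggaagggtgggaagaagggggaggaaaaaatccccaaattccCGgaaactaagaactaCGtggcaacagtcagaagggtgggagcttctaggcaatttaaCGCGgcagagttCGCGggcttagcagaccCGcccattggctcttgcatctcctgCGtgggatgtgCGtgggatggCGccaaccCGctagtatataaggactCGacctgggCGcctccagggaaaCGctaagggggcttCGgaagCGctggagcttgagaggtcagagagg

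Among tested genes with a RefSeq promoter (11231 of 16456), the median promoter held 26 CG pairs in 300 bases. Higher and lower members at least 2-fold in both lines had medians of 22 and 20.5, over 274 and 180 promoters. The share with 5 or fewer CG pairs was 15% of these higher and 21.1% of these lower promoters, against 8.62% of all tested ones. Members at least 2-fold in both lines were low-level genes. Their median values were 12.9 in parent and 77.5 in R50 for the higher ones, and 122 and 29 for the lower ones. All tested genes had a median of 344 in parent. Whether these promoters differ from those of other genes at such levels was not tested. Over all tested members, whatever their fold, the shares with 5 or fewer CG pairs were 6.58% and 7.3% and the medians 26 and 27. The letters TGANTCA, the core bound by AP-1 factors, were searched on both strands. They stood in 6.93% and 6.11% of the promoters of higher and lower members at least 2-fold in both lines. Over all tested members, whatever their fold, the shares were 5.13% and 5.18%, beside 5.27% of the tested promoters. None of the 4 promoters shown held these letters. DNA methylation was not measured in these libraries.

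CHL1, an L1-type adhesion molecule of neurons, was 1.57, 0 and 0 in the parent libraries. It was 550, 646 and 575 in R50 and 601, 564 and 566 in R50_OFF, so that the resistant lines overlapped each other. The change was 8.75 in R50 and 8.72 in R50_OFF. CDH11, a cadherin of mesenchymal cells, rose from 71.7, 112 and 65.5 to between 1399 and 1771 in R50 and between 2245 and 2462 in R50_OFF. Both lines lay far above parent, and R50_OFF lay above R50 in every library. AMIGO2, a neuronal adhesion protein, rose from 89.7 to 105 in parent to between 879 and 1289 in R50 and between 732 and 812 in R50_OFF, and PTK7, a Wnt co-receptor, changed by 3.71 and 3.13. SEMA6B, a transmembrane semaphorin, changed by 3.34 and 2.55.

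A pair of neighbouring X-linked genes rose together. MAGEA12, a cancer-testis antigen normally silent outside the germ line, was 5.16, 10.2 and 9.5 in parent, between 1373 and 1458 in R50 and between 1364 and 1453 in R50_OFF. CSAG1, which lies beside it, was 10.4 to 17.3 in parent, 2147 to 2407 in R50 and 2182 to 2211 in R50_OFF. The resistant lines overlapped in both genes. The adjacent pseudogene CSAG4 was listed at 0 in parent, with means of 55 and 29.8 in the resistant lines. These genes have near-identical copies, so the reads of each are uncertain. Of the 12 tested cancer-testis genes 4 were higher and 1 lower by the rule: MAGEA1 rose by 0.73 and 0.89, while CTAG2 was 66.6, 63.7 and 73.9 in parent and listed at 0 in every resistant library. Another 4 genes of the list lay apart from parent but 2-fold or more apart between the lines.

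Other leading rises were genes of signalling and calcium binding. CALB2, the calcium-binding protein calretinin, went from 279 to 332 in parent to 1783 to 2057 in R50 and 2451 to 2721 in R50_OFF. PMEPA1, an inhibitor of TGF-beta signalling that TGF-beta itself induces, changed by 2.7 in R50 and 3.33 in R50_OFF. Further leading rises were PSD4, PLPP2, ARL10 and the pseudogene NCOR1P4, with changes between 2.5 and 7.12 in either line. In 9 of the 14 leading rises limma placed R50_OFF and R50 apart, at adjusted p below 0.05 with Benjamini-Hochberg adjustment over all tested genes, 59.5% of which passed in that comparison.

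**Figure D2:**
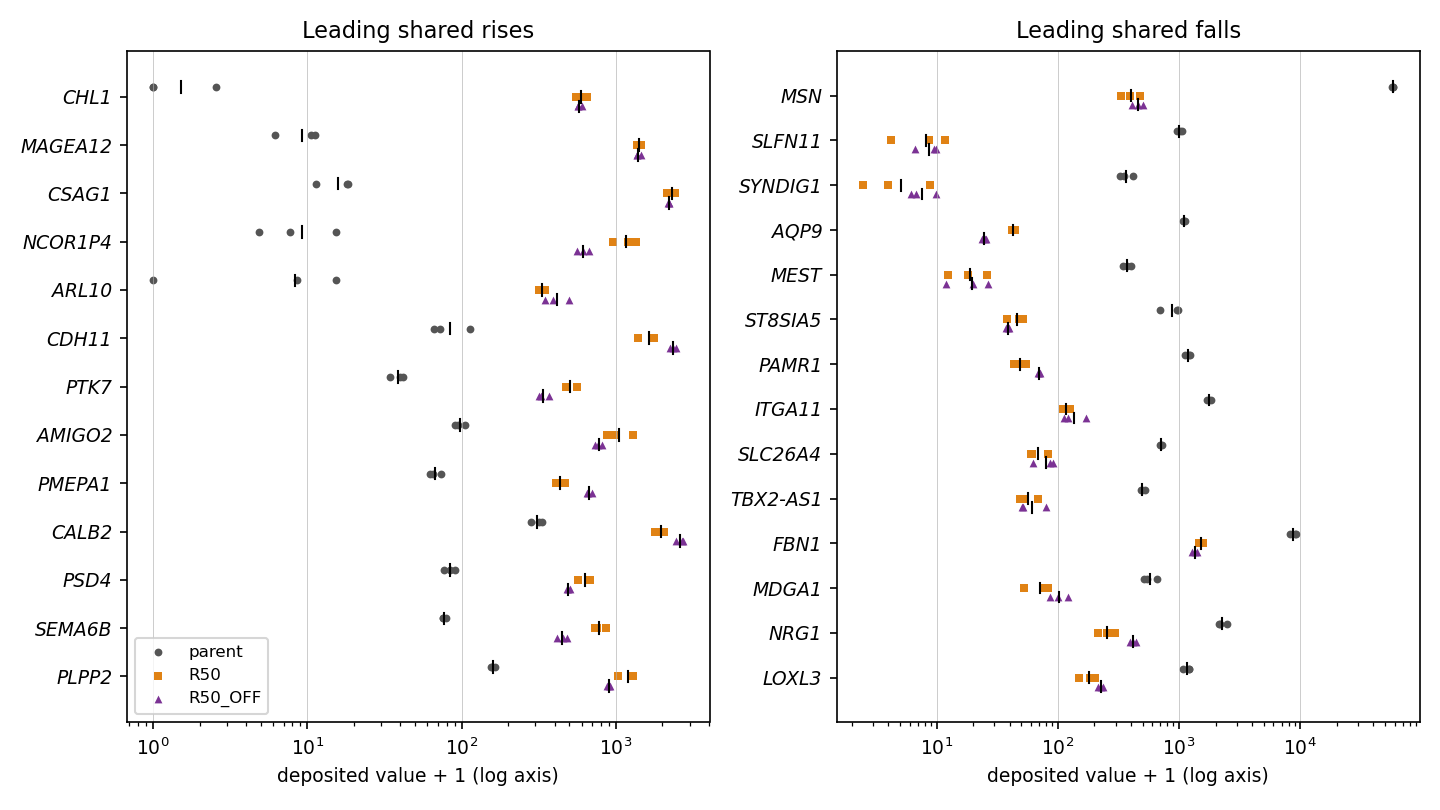
Deposited value plus 1 on a log axis for leading shared rises (left) and falls (right), with 1 point per library and a black bar at each group's mean, 3 libraries per group. No resistant library touches the parent libraries in any gene shown, and the resistant lines overlap in CHL1, MAGEA12, CSAG1, SLFN11 and MEST but not in CDH11 or AQP9.

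MSN, which encodes moesin, the linker between membrane proteins and cortical actin, showed the largest shared fall among genes at or above the median level of tested genes. It was 57196, 58401 and 57975 in parent, 333, 394 and 476 in R50, and 406, 460 and 502 in R50_OFF. The resistant lines overlapped, with changes of -7.18 and -6.99. Its relatives did not move with it: EZR (ezrin) changed by -0.15 and 0.17 and RDX (radixin) by -0.16 and 0.00, and neither met the rule. In limma with Benjamini-Hochberg adjustment the mean of both lines gave adjusted p = 0.919 for EZR and 0.433 for RDX. Opposite changes cancel in that mean. With each line set against parent by itself, the adjusted p of EZR was 0.0394 in R50 and 0.0334 in R50_OFF. NF2, the merlin tumour suppressor of the same protein family, changed by -0.22 and 0.02 (adjusted p = 0.0586 in the mean of both lines). By itself R50 gave NF2 an adjusted p of 0.00196 in limma, and R50_OFF gave 0.731.

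Proteins that bind this linker family were described with it. NHERF2, a scaffold that joins ezrin-type linkers to membrane proteins, rose from 22.9 to 34.4 in parent to 129 to 171 across the resistant libraries, by 2.44 in each line. ICAM1 and ICAM3, adhesion molecules, changed by -1.01 and -0.58 and by -0.8 and -0.27. Other membrane partners did not meet the rule. CD44, the hyaluronan receptor, changed by -0.54 in R50 and 0.1 in R50_OFF, PDPN (podoplanin) by -2.44 and -0.25, and SPN, the leukocyte sialoglycoprotein CD43, by 7.18 and 2.61. PDPN and SPN lay on one side of parent in both lines, with means 2-fold or more apart. Of the 12 tested genes of linkers and partners, 1 was higher and 4 lower by the rule.

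SLFN11 was 1010, 1054 and 956 in the parent libraries. It was 7.65, 10.9 and 3.23 in R50 and 8.55, 5.7 and 8.96 in R50_OFF, and the resistant lines overlapped. The changes were -7.06 and -6.87. Of its family, SLFN5 changed by -0.36 and -0.67 and met the rule, from 2004 to 2148 in parent to between 1258 and 1687. SLFN12 changed by 0.72 in R50 and -0.21 in R50_OFF and did not meet it, and SLFN13 and SLFN14 did not reach the minimum value.

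Several leading falls encode matrix, surface and transport proteins. FBN1, the microfibril protein fibrillin, fell from 8166, 9002 and 9129 to between 1454 and 1575 in R50 and between 1278 and 1416 in R50_OFF. ITGA11, a collagen-binding integrin chain, fell from 1701 to 1850 in parent to between 109 and 170 in the resistant libraries. LOXL3, a lysyl oxidase that cross-links collagen, changed by -2.72 and -2.37. AQP9, a water and glycerol channel, was 1074 to 1112 in parent, 40.7 to 43 in R50 and 22.6 to 24.6 in R50_OFF, and the 3 groups did not overlap. SLC26A4, the anion exchanger pendrin, changed by -3.4 and -3.17, and ST8SIA5, a sialyltransferase of gangliosides, by -4.26 and -4.5.

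The other leading falls included genes of neural and developmental signalling. NRG1, the ERBB-receptor ligand neuregulin, fell from 2134 to 2476 in parent to 215 to 297 in R50 and 394 to 444 in R50_OFF. SYNDIG1, a synapse protein, was 325, 352 and 418 in parent and between 1.5 and 8.95 in the resistant libraries. MDGA1, an adhesion protein of the immunoglobulin family, changed by -3.03 and -2.48, and PAMR1 by -4.62 and -4.09. TBX2-AS1, the antisense transcript of the TBX2 locus, changed by -3.14 and -3.07. Without the strand setting of the counting, its reads cannot be told from those of TBX2.

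MEST, an imprinted gene expressed from the paternal allele, was 347, 401 and 374 in parent and 10.9 to 25.3 across the resistant libraries. Other imprinted genes met the rule with low levels, and they were chosen after their values were seen. NDN (necdin), also paternally expressed, was 182, 161 and 148 in parent and listed at 0 in all 6 resistant libraries. DIRAS3, a paternally expressed growth suppressor of the RAS family, went the other way, from 6.08, 19.2 and 13.4 to between 288 and 347. Among the lower members that passed the filter, 9 were listed at 0 in every resistant library. All had a name: NDN, DTNBP1, CTAG2, MAGEE1, RNF149, GRIA3, CTSZ, SOX21 and ZNF671. In the parent they were low, with means from 12.3 for ZNF671 to 164 for NDN. Such genes passed the filter only with at least 10 in all 3 parent libraries, so lower ones are not counted. DTNBP1, which encodes dysbindin, was 104, 96.6 and 108 in parent.

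At the other end, 14 higher members that passed the filter were listed at 0 in every parent library. Of these 10 had a name, among them SOX2, ZNF569 and PCSK6. SOX2, a neural stem cell factor, was 36.6, 35.9 and 46 in R50 and 23.1, 23 and 28.1 in R50_OFF. The 105 members at least 8-fold higher had a median level of 2.51 in parent and 73.5 in each resistant line, and all 3 parent libraries of 74 of them were under 10. Such genes passed the filter only through the resistant libraries. The 37 members at least 8-fold lower had medians of 103 in parent, 4.09 in R50 and 3.76 in R50_OFF.

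The genes of this paragraph, most of them at high levels, were also chosen after their values were seen. TFPI2, a secreted protease inhibitor, fell from 206495 to 222853 in parent to 29310 to 34468 in R50 and 48070 to 55552 in R50_OFF. ADGRG1, an adhesion G-protein-coupled receptor, fell from 29543 to 30531 to between 4953 and 6284. LAMA5, a laminin chain of basement membranes, changed by -2.55 and -2.17. APCDD1L rose from 2165 to 2708 in parent to 11947 to 15243 in the resistant libraries, by 2.37 and 2.53. NNT, a low-level gene that encodes the mitochondrial transhydrogenase that supplies NADPH, was 13.7 to 16.5 in parent and 171 to 189 in the resistant libraries, and its lines overlapped.

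The 39 gene lists place these members in pathways, and 31.4% of all tested genes met the rule in either direction. Protein-coding genes made up 76.7% of tested genes but 82.7% of the higher and 92.8% of the lower members. Their own share was thus above 31.4%. Lower members also had a median parent value of 1158, against 344 over all tested genes. The lists were not matched for gene type or level. Genes of the response to low oxygen met the rule most often among lists of at least 10 tested genes, and nearly all on the lower side. Of 20 tested, 13 were lower and 1 higher by the rule, and limma called 16 lower and 2 higher. The limma shares over all tested genes were 29.5% lower and 29.7% higher. PFKFB4, a regulator of glycolytic flux, was 8266 to 9457 in parent, 2904 to 2981 in R50 and 4356 to 4723 in R50_OFF. NDRG1, a stress-induced gene, changed by -0.7 and -1.06, P4HA1, a collagen prolyl hydroxylase, by -0.69 and -0.67, and PDK1, a kinase that inhibits pyruvate dehydrogenase, by -1.03 and -0.75. No member reached 2-fold in both lines, and the list's median changes were -0.64 in R50 and -0.31 in R50_OFF, beside a median of 0.013 over all tested genes in the mean of both lines.

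Glycolysis, which shares PGK1, LDHA and SLC2A1 with that list, had 9 genes lower and 1 higher of 18 by the rule. HK2, a hexokinase of tumour cells, fell from 2397 to 2502 to between 1117 and 1156 in R50 and between 1603 and 1738 in R50_OFF. ENO2, the neuronal enolase, changed by -1.37 and -0.68, and HK1 by -0.39 and -0.34. Nuclear genes of oxidative phosphorylation went the other way, 8 higher and 0 lower of 21 by the rule. There limma called 12 higher and 3 lower, beside 29.7% higher and 29.5% lower over all tested genes. Those changes were small: NDUFS3, a subunit of complex I, changed by 0.39 and 0.74, and ATP5F1B, the catalytic chain of ATP synthase, by 0.23 and 0.4.

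NRF2 targets, which detoxify oxidants and electrophiles, were mostly lower, 7 against 2 higher of 16. HMOX1, the haem oxygenase, fell from 21988 to 29274 in parent to 8101 to 8730 in R50 and 6015 to 6055 in R50_OFF. AKR1C1, an aldo-keto reductase with near-identical copies, changed by -1.82 and -2.26, NQO1, a quinone reductase, by -0.63 and -0.65, and GCLM, a chain of the glutathione synthesis enzyme, by -1.09 and -0.71. Cholesterol synthesis had 7 lower and 1 higher of 18, with INSIG1, a sterol sensor of the pathway, at -0.64 and -1.15 and SQLE, the squalene epoxidase, at -0.38 and -0.57. SREBF2, the factor that activates these genes, changed by 0.81 and 0.31. Of 17 genes of the unfolded protein response and ATF4, 4 were higher and 3 lower, with the amino acid enzyme PSAT1 at 0.63 and 0.55 and the chaperone HSP90B1 at -0.54 and -0.46.

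Repair genes were read in 3 lists. By the rule 5 of 8 genes of mismatch repair were lower and none was higher, and limma with Benjamini-Hochberg adjustment called 6 lower and 0 higher. Over all tested genes limma called 29.5% lower and 29.7% higher. MLH3 was 1192 to 1251 in parent, 682 to 783 in R50 and 700 to 818 in R50_OFF, changes of -0.77 and -0.67. MSH6, which recognises single mismatches, was 1894 to 1917 in parent, 967 to 1062 in R50 and 1649 to 1827 in R50_OFF, a change of -0.16 in the line off the drug against -0.93 in the line in it. With the 6 resistant libraries as 1 group, which takes the difference between the lines as spread, limma's adjusted p was 0.101 for MSH6. PMS2, an endonuclease of the pathway, changed by -0.4 and -0.36 (adjusted p = 0.00972), and without parent replicate 3 its adjusted p was 0.0612. PMS1 changed by -0.38 and -0.34 (adjusted p = 0.0117, and 0.0553 without parent replicate 3). MSH6 and PMS1 lie on chromosome 2. Over all tested genes of that chromosome the median change was -0.34 in R50 and -0.05 in R50_OFF, and its part in these falls was not tested.

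Homologous recombination and the Fanconi anemia pathway, which mend crosslinks and broken forks, had 8 genes lower and 1 higher of 15. BRCA2 fell from 707 to 792 to between 338 and 460, BRCA1 changed by -1.07 and -0.49, BRIP1 by -0.6 and -0.56 and FANCI by -0.39 and -0.36. In alkylation reversal and base excision repair 15.4% of genes met the rule, 2 higher and 0 lower of 13. APEX1, the abasic-site nuclease, was 5711 to 6180 in parent, 8979 to 9461 in R50 and 9775 to 10157 in R50_OFF, and ALKBH2, a demethylase of alkylated bases, changed by 0.31 and 0.28. APEX1 lies on chromosome 14, described below. MPG, the glycosylase for alkylated purines, changed by -0.12 and 0.23 and did not meet the rule (adjusted p = 0.308 in the mean of both lines). These changes partly cancel in that mean. By itself R50 gave MPG an adjusted p of 0.0727 in limma, and R50_OFF gave 0.00365.

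**Figure D3:**
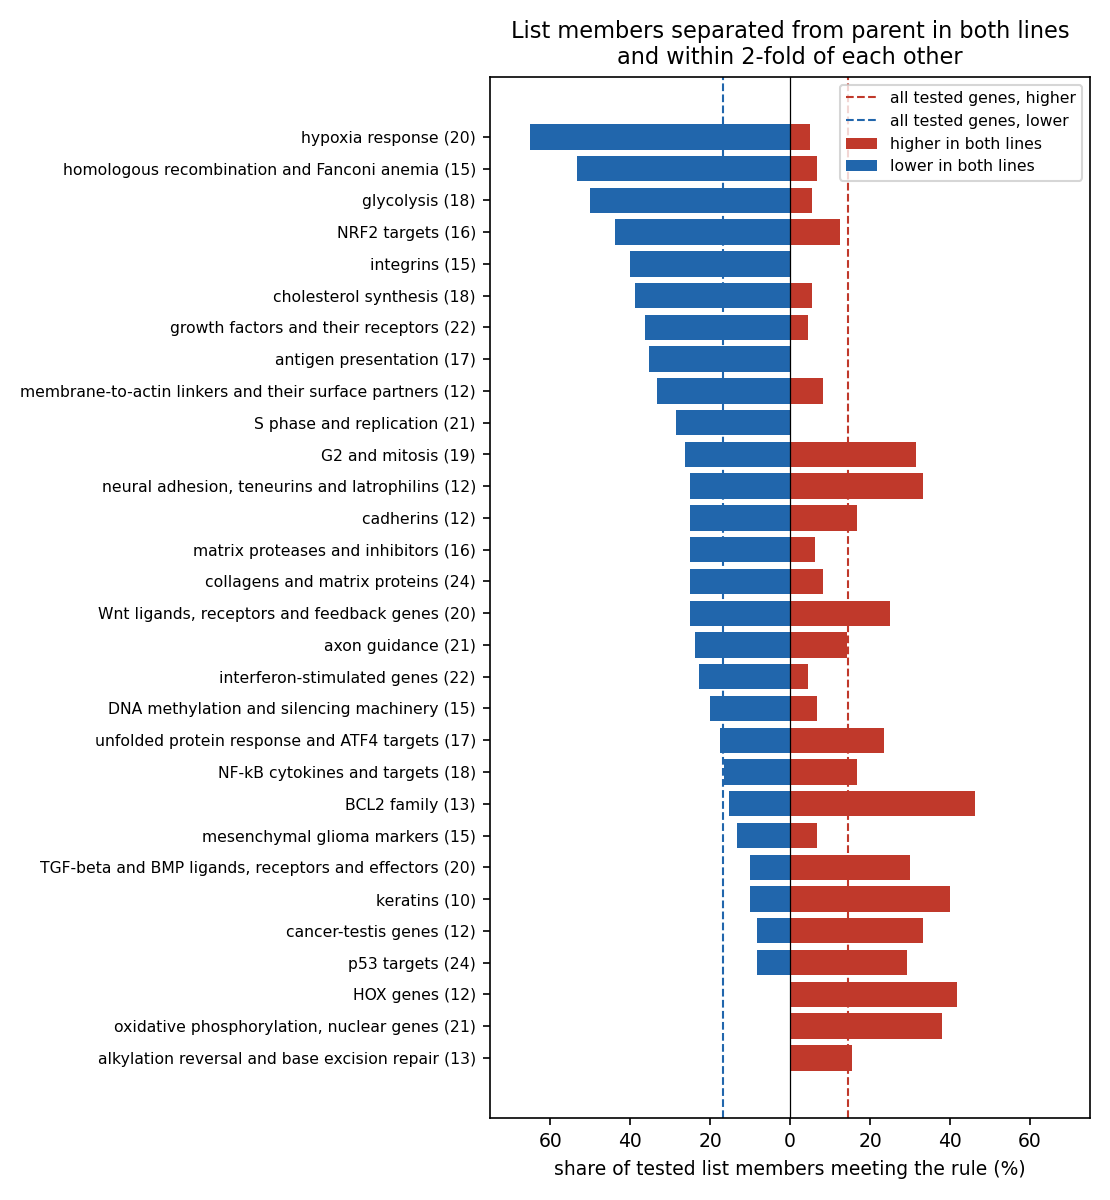
For each of the gene lists with at least 10 tested genes (number in brackets), bars give the share that met the rule on the higher side (right) and lower side (left), and dashed lines give 14.6% and 16.7%, the shares of all tested genes. Hypoxia, homologous recombination and glycolysis reach farthest to the left, and the BCL2 family, HOX genes, keratins and oxidative phosphorylation farthest to the right.

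Targets of p53 met the rule in 37.5%, against 31.4% of all tested genes, a share that was higher among protein-coding genes alone. CDKN1A and MDM2 were among the targets that did not meet the rule. CDKN1A, the cell cycle inhibitor p21, was 4504 to 4599 in parent, 8472 to 9411 in R50 and 3542 to 3728 in R50_OFF, on opposite sides of parent. MDM2, the p53 ubiquitin ligase, changed by 0.34 and -0.18. Of the 24 targets 7 were higher and 2 lower by the rule. PHLDA3, an inhibitor of AKT, changed by 0.95 and 0.48 and GDF15, a stress cytokine, by 1.2 and 0.45, while the death receptors FAS and TNFRSF10B changed by -0.68 and -1.41 and by -0.88 and -0.43.

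The BCL2 family, which sets the threshold of mitochondrial cell death, had 6 higher and 2 lower of 13 tested genes by the rule. The higher genes included the death promoters BBC3, at 1.17 and 0.4, and BAK1, at 0.97 and 0.33. BCL2L1, which encodes the survival protein BCL-XL, was 11416 to 11492 in parent and 6566 to 7304 in the resistant libraries, by -0.72 and -0.78. BCL2 itself went from 34 to 44.1 in parent to 47.9 to 73.9, and its call was lost under quantile normalization (adjusted p = 0.161) and without parent replicate 3 (0.0612). S phase genes met the rule on the lower side only, 6 of 21. That is 28.6%, beside 31.4% of all tested genes in either direction and 16.7% on the lower side. The list's median changes were -0.77 in R50 and 0.02 in R50_OFF. POLE, the leading-strand polymerase, led the 6 at -0.88 and -0.49. Of 19 genes of G2 and mitosis 6 were higher and 5 lower: UBE2C, a mitotic ubiquitin enzyme, changed by 0.38 and 0.63, and CENPE, a kinetochore motor, by -0.83 and -0.82. MKI67, the proliferation antigen, was 17022 to 18285 in parent and 10555 to 12679 in the resistant libraries.

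Growth factors and their receptors had 8 lower and 1 higher of 22, and a further 6 lay apart from parent with the lines 2-fold or more apart. HBEGF, an EGFR ligand, fell from 1863 to 2063 to between 807 and 942 in R50 and between 1007 and 1070 in R50_OFF. MET, the hepatocyte growth factor receptor, changed by -1.26 and -0.63, PDGFRB by -0.96 and -0.85 and VEGFC by -1.26 and -0.74. EGFR, the receptor often amplified in glioblastoma, was 2094 to 2158 in parent, 1193 to 1365 in R50 and 1980 to 2082 in R50_OFF, and so met the rule with a change of -0.08 in the line off the drug (adjusted p = 2.71e-05 in limma with Benjamini-Hochberg adjustment, and 0.148 with the resistant libraries as 1 group). IL6 changed by -2.46 and -1.72, from 328 to 427 in parent to 50.3 to 131, and CCL2, a monocyte chemokine, by 1.48 and 1.91 from 20.9 to 35.9. The NF-kB list as a whole had 3 higher and 3 lower members of 18, while 9 lay apart from parent with lines 2-fold or more apart.

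Integrins were lower where they met the rule, 6 of 15, with none higher. ITGA3, a laminin receptor chain, fell from 117921 to 129764 in parent to 63197 to 77670, and ITGA5, the fibronectin receptor chain, changed by -1.33 and -0.59. Matrix genes went both ways, 6 lower and 2 higher of 24: COL5A1 changed by -1.43 and -0.8, LOX by 1.03 and 1.32, and THBS1, the matricellular protein thrombospondin, rose from 1236 to 1506 to between 6259 and 8844. MMP14, the membrane-anchored collagenase, was 79361 to 84141 in parent and 29403 to 36321 in the resistant libraries. MMP2, the gelatinase it activates, changed by -0.75 and -0.59. In the drug efflux list ABCC4 met the rule on the higher side, at 0.31 and 0.64. ABCC4 lies on chromosome 13 beyond 90 megabases, a stretch described below, and the part of that stretch in its rise was not tested. On the lower side the rule was met by 4 of 9 genes, including the lipid exporter ABCA1 at -1.32 and -1.12 and ABCC1 at -0.3 and -0.46.

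Developmental and neural genes changed in both directions. In the neural adhesion list 4 were higher and 3 lower of 12, with the latrophilin ADGRL1 at 1.22 and 1.64, the node protein NFASC at -2.03 and -1.25 and TENM3, a teneurin, at -1.45 and -0.64. HOX genes met the rule on the higher side only, 5 of 12: HOXC10 was 14.1 to 26.9 in parent, 114 to 151 in R50 and 202 to 249 in R50_OFF, and HOXC8 changed by 1.36 and 1.4. Of 10 tested keratins 4 were higher and 1 lower by the rule. The limma fit called 6 higher and 3 lower, beside 29.7% and 29.5% of all tested genes. The list's median changes were 2.13 in R50 and 0.19 in R50_OFF. Epithelial keratins KRT8 and KRT18, which pair in 1 filament and are neighbours on chromosome 12, changed by 2.48 and 2 and by 3.16 and 3.75. KRT8 was 143 to 161 in parent and 576 to 938 in the resistant libraries, and keratins have near copies whose reads are uncertain. Among Wnt genes 5 were higher and 5 lower of 20, with the secreted DKK3 at 2.05 and 2.11, the receptor FZD7 at 1.42 and 1.92 and the co-receptor ROR1, at most 20.1 in every library, at -3.41 and -3.62. SEMA5A, a guidance semaphorin, changed by -2.07 and -2.09.

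Of 15 markers of mesenchymal glioma 1 was higher and 2 lower by the rule, 20% in all. The lower ones were MET, given above, and VIM, which changed by -0.67 and -0.18 (adjusted p = 2.79e-05 in limma with Benjamini-Hochberg adjustment, and 0.0609 with the resistant libraries as 1 group). TGFBI, a secreted matrix protein and the higher one, was 46051 to 56786 in parent and 75044 to 98949 in the resistant libraries. Among astrocyte markers, SLC1A3, the glutamate transporter GLAST, rose from 2850 to 3062 to between 5296 and 5745, and ALDH1L1 fell from 29.9 to 46.3 to at most 1.9. Leukocyte and endothelial markers summed to 348 to 384 in parent and 151 to 328 in the resistant libraries, with PTPRC under 10 throughout. PECAM1, an endothelial adhesion protein, made up most of that sum, with means of 352 in parent, 236 in R50 and 130 in R50_OFF. Of the 5 tested markers limma called 3 higher and 1 lower, beside 29.7% higher and 29.5% lower over all tested genes. VWF, a clotting protein of endothelium, met the rule as higher with a mean of 9.56 in parent and of 22.9 and 18.5 in the resistant lines.

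The share of members differed between chromosomes. The higher members took 30.1% of the 568 tested genes of chromosome 14 and 26.2% of the 374 of chromosome 22, against 14.6% of all tested genes, and their median changes were 0.3 and 0.19 on chromosome 14 and 0.1 and 0.2 on chromosome 22 in R50 and R50_OFF. Every window of 10 megabases on chromosome 14 with at least 20 tested genes had between 17.9% and 38.5% higher members. Chromosome 2 showed the reverse, with 25.8% of its 1114 tested genes lower and 7.36% higher. The chromosome's median change was -0.34 in R50 and -0.05 in R50_OFF. Copy number was not measured in these libraries.

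**Figure D4:**
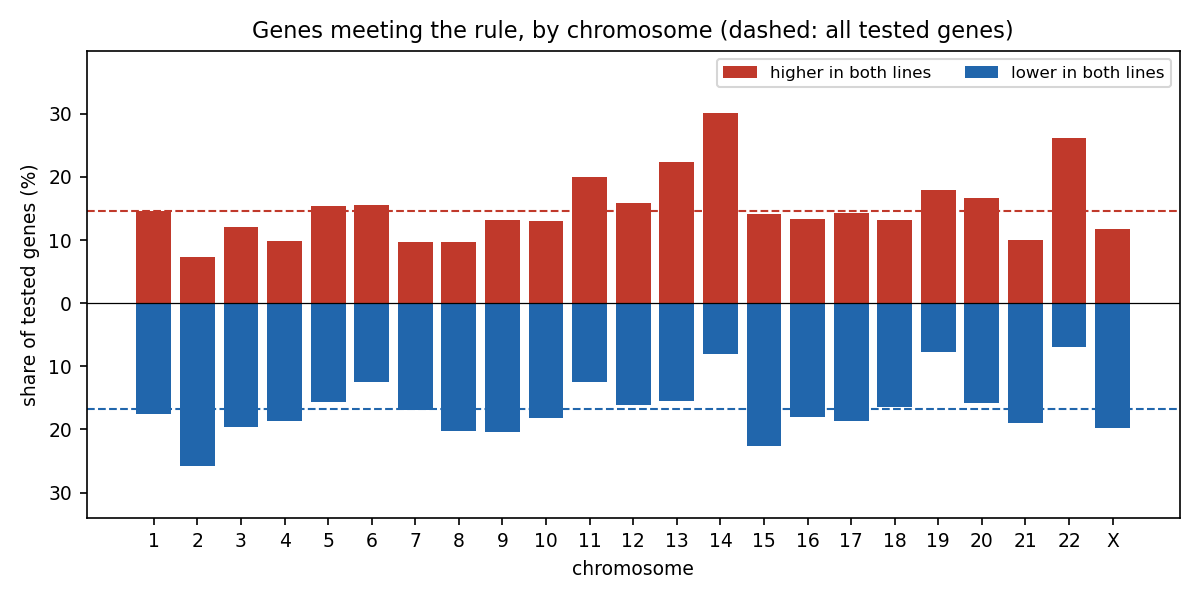
Share of the tested genes on each chromosome that met the rule on the higher side (upward bars) and the lower side (downward bars), with dashed lines at 14.6% and 16.7% for all tested genes. Chromosomes 14 and 22 have the tallest upward bars and chromosome 2 the longest downward bar.

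On chromosome 13 the members split at about 90 megabases, a point chosen after the values were seen. Beyond it 47 of 95 tested genes were higher (49.5%) and 4 lower, and before it 21 of 208 were higher and 43 lower. The median change beyond this point was 0.77 in R50 and 0.65 in R50_OFF, and before it 0.07 and -0.07. UBAC2, which acts in protein degradation at the endoplasmic reticulum, was 1912 to 1979 in parent, 4146 to 4358 in R50 and 3802 to 4028 in R50_OFF. IRS2, an insulin receptor substrate, changed by 1.88 and 1.26 and GAS6, the ligand of the AXL receptor, by 1.74 and 1.08, and these genes too were chosen after their values were seen. Of the 105 genes at least 8-fold higher, 14 (13.3%) lay on the X chromosome, which holds 3.65% of tested genes. Every parent library of 74 of the 105 was under 10, so these 74 passed the filter only through the resistant libraries. Whether the X share differs from that of other genes at such levels was not tested. Neighbours among the 105 included CSAG1 with MAGEA12 and NNT with its antisense NNT-AS1, whose reads may be shared.

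Numbered zinc finger genes, a family of mostly KRAB repressors clustered on chromosome 19 and picked out after their values were seen, met the rule on the higher side in 70 of 398 (17.6%, against 14.6% of all tested genes) and on the lower side in 29 (7.29%, against 16.7%). At least 2-fold in both lines were 19 higher and 3 lower, 11 and 2 of them on chromosome 19. ZNF583 was 0, 1.31 and 4.73 in parent and between 49.2 and 116 in the resistant libraries, and ZSCAN18, of a related family, was at most 0.631 in parent and between 44.2 and 119. Reads of near-identical zinc finger genes are uncertain. Long non-coding RNAs made up 13.8% of tested genes and 12.7% of the tested higher members, 28.1% of those at least 2-fold higher and 38.1% of those at least 8-fold higher. Among lower members they made up 4.28%, and 11.7% and 13.5% of those at least 2-fold and 8-fold lower. The filter bears on such contrasts between higher and lower members, for zinc finger genes too. A gene near 0 in parent could pass through any 3 resistant libraries. A gene near 0 in both resistant lines needed all 3 parent libraries. The sets were not matched for level, so whether gene type goes with direction apart from level and filter was not tested.

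The line in the drug and the line off it were also set beside each other within these genes. In 45.3% of the higher and 43.6% of the lower members the R50 and R50_OFF libraries overlapped, beside 36.6% of all tested genes, and the rule favours overlap because it limits the means to less than 2-fold. R50 was the farther from parent in 1425 higher members and R50_OFF in 983, and in 1743 lower members against 1003. The median size of change among higher members was 0.59 in R50 and 0.49 in R50_OFF, and among lower members 0.58 and 0.46.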

How the data were processed

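RNA of 9 U87MG libraries was analysed, grouped by the sample titles. The labels' protocols describe a strand-specific poly-A kit and single reads of 50 bases. The tool bcl2fastq 2.17.1.14 and the build hg38 are listed, per the submitters' processing notes. How reads were aligned and counted, on which strand and with which annotation, is not given in the sources used. The authors deposited a normalized signal per gene, which the file headers describe as divided by median transcript length in kilobases. The values of 33263 of 33264 genes could be traced to reads with a library factor and a transcript length. The deposited values are normalized and divided by length, so limma on a log scale, not a count test, was used.

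limma 3.58.1 in R 4.3.3 was fitted to log2(value + 1) with an empirical Bayes trend, 3 groups and 6 residual degrees of freedom, over the 16456 genes that reached 10 in 3 or more libraries. Tests are two-sided with Benjamini-Hochberg adjustment at 0.05; both lines are compared with the same parent libraries. Tested on simulated data with 15972 genes for both lines against parent, 58% of the 1.25-fold and 96% of the 2-fold changes were found, and 9 of 15773 unchanged genes were called. The simulation gave all genes and libraries the same spread and changed few genes, none with few reads. In the real data the spread differed between libraries and 59.2% of tested genes were called. How often real changes were found or missed was therefore not tested. Library totals and replicate differences give the depth; replicates differed by more than counting noise in every pair.

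The members, the 39 lists and the named genes were chosen with earlier results of these data known. Named were the 14 largest rises and 14 largest falls by the smaller of the 2 lines' changes (with the higher group's mean not below the tested genes' median), up to 4 members per list, and, whatever their result, the membrane-to-actin linkers with their partners, the Schlafen genes, MSH6, PMS2, MPG, CDKN1A, MDM2, EGFR, SOX2 and NES. Symbols and positions came from GENCODE version 44 for 33137 IDs (99.62%), and promoters from RefSeq. Alternatives were other pseudocounts, filters and fold limits, quantile normalization, 2 groups, a replicate block and leaving out each library. MGMT and CDKN2A were not analysed here. Some genes named by the rule are left out of the text and are not reported here.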

Additional observations from a re-analysis of the deposited data

Results flagged for a closer look

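Genes named in the text for which the resistant lines differed are listed by the change of R50_OFF minus R50 on the log2 scale, each at adjusted p below 0.05 in limma with Benjamini-Hochberg adjustment, which 59.5% of all tested genes passed. Among the 28 leading genes 15 differed. R50_OFF was higher for CDH11 (0.53), PMEPA1 (0.62) and CALB2 (0.43) among the rises and lower for NCOR1P4 (-0.92), PTK7 (-0.57), AMIGO2 (-0.42), PSD4 (-0.37), SEMA6B (-0.79) and PLPP2 (-0.41). Among the falls R50_OFF was lower for AQP9 (-0.8) and FBN1 (-0.17) and higher for PAMR1 (0.53), MDGA1 (0.54), NRG1 (0.72) and LOXL3 (0.35).

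Of 21 further genes named whatever their result, 17 differed. Among linker proteins and partners the differences were 0.32 for EZR, 0.24 for NF2, -1.02 for NHERF1, 0.63 for CD44, 2.19 for PDPN, -4.57 for SPN, 0.77 for MYO1C, 0.42 for ICAM1 and 0.53 for ICAM3. SLFN5 differed by -0.31 and SLFN12 by -0.93. The repair genes MSH6 and MPG differed by 0.77 and 0.34, CDKN1A and MDM2 by -1.33 and -0.52, EGFR by 0.66 and NES, a filament of neural progenitors, by -1.57. Of the other 139 named genes, 78 differed.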

How the results depend on the processing

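With the resistant libraries as 1 group of 6 in place of 2 groups, limma called 2489 genes higher and 2520 lower, against 4890 and 4849; the spread then includes the difference between the lines. In that fit MSH6 (adjusted p = 0.101), EGFR (0.148) and CDKN1A (0.548) no longer passed. A minimum value of 50 left 292 higher and 184 lower members at least 2-fold in both lines, against 467 and 291, from fewer genes tested. Every other alternative kept these counts within 1.5 times: leaving out each library gave 4323 to 5117 higher and 4275 to 5154 lower calls, and 2468 to 2710 higher and 2810 to 3048 lower members. A fold limit of 1.5 between the lines gave 2042 and 2396 members, a limit of 4 gave 2731 and 3037, and quantile normalization 2636 and 2626, with 2140 and 2344 of the original members among them. With a replicate block limma called 5010 and 4975. The replicate numbers did not pair the libraries: same-numbered libraries correlated at -0.021 to 0.1. All 28 leading genes kept direction and call in 448 of 448 refits, and no named gene reversed a call; TBX18 (-0.12 and -0.14) lost its call in most refits. The planned count test on traced reads was not run, so how the calls depend on that choice was not tested. Depth limits genes under about 10, whose folds depend on the pseudocount.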
